A study of Vitis vinifera with 9 samples.

Results

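The transcripts described here belong to the Calvin cycle, which fixes CO2 in the chloroplast, and to photorespiration, which recovers carbon lost when the same enzyme takes up O2. Probe sets were taken as members when their annotation named rubisco, a rubisco helper, phosphoribulokinase, sedoheptulose-bisphosphatase, transketolase, glycolate oxidase, glycine decarboxylase, serine hydroxymethyltransferase, hydroxypyruvate reductase, a glycerate kinase or carbonic anhydrase, and the words themselves used no measured value. This gave 34 of the 16436 grape probe sets tested, which carry 26 gene symbols and 1 probe set with no symbol. The names rest on similarity of the probed transcript to Arabidopsis proteins, given as strong for 8 members, moderate for 22 and weak for 4. For 13 members the suffix of the probe set marks probes that can bind several transcripts. The words glycerate kinase were matched only within phosphoglycerate kinase, an enzyme of the Calvin cycle and of glycolysis, so the photorespiratory kinase itself has no member. The words searched for fructose-bisphosphatase and for phosphoglycolate phosphatase matched no annotated probe set, so these enzymes have no member either.

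Leaves of the Vitis vinifera cultivar 'Hongbaladuo' were 30 days old, were detached, stood with the petiole in water and were kept in the dark at 25 °C before their lower surface received UV-C at 6 W per square metre for 10 min. The control leaves were sampled at 0 h, before irradiation, and the treated leaves 6 h and 12 h after the start of treatment, with 3 arrays in each of the 3 groups and 6 pooled leaves behind each array. No array of unirradiated leaves at 6 h or 12 h was analysed here, so UV-C, time since detachment and hour of the day cannot be told apart in any comparison with the control. Whole leaves were measured, and fewer cells of a type cannot be told apart from less RNA per cell.

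In the Calvin cycle, rubisco joins CO2 to ribulose bisphosphate, activase keeps rubisco free of inhibiting sugar phosphates, phosphoglycerate kinase takes part in the reduction of the product, and transketolase, sedoheptulose-bisphosphatase and phosphoribulokinase rebuild the acceptor. In photorespiration, glycolate oxidase acts in the peroxisome, glycine decarboxylase and serine hydroxymethyltransferase turn glycine into serine in the mitochondrion, and hydroxypyruvate reductase returns the carbon towards glycerate. Both pathways are strongly expressed in mature green leaves and many of their transcripts depend on light.

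Most members were lower after UV-C, and more so at 12 h than at 6 h. At 6 h 15 members fell and 0 rose (limma, adjusted p under 0.05 and at least 2-fold), a share falling of 44.1% beside 14.7% of all probe sets, of which 11.9% rose. At 12 h 21 members fell and 1 rose, a share falling of 61.8% beside 17.5% of all probe sets, of which 14.7% rose. The median log2 change of the members was -0.76 at 6 h and -1.27 at 12 h, beside -0.03 and 0.05 over all probe sets. Between 6 h and 12 h, tested directly, 7 members were lower and 1 was higher, a share of 20.6% lower beside 4.54% of all probe sets, of which 2.34% were higher. The 2 comparisons with the control share its 3 arrays. Of the 34 members, 13 fell at both times, 8 fell at 12 h only, 2 fell at 6 h only, 1 rose at 12 h only and 10 were called at neither time. These counts are of probe sets, and 6 genes were measured by more than 1, with 13 probe sets between them. Averaged per gene, the falling shares of the members were smaller at 6 h and at 12 h, but no share over all genes was set beside them. Without the fold threshold, 23 members were lower than the control at 6 h, 27 at 12 h, and 17 were lower at 12 h than at 6 h. No share of all probe sets at that setting stands beside these counts, and the shares above include the fold threshold.

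**Figure D1:**
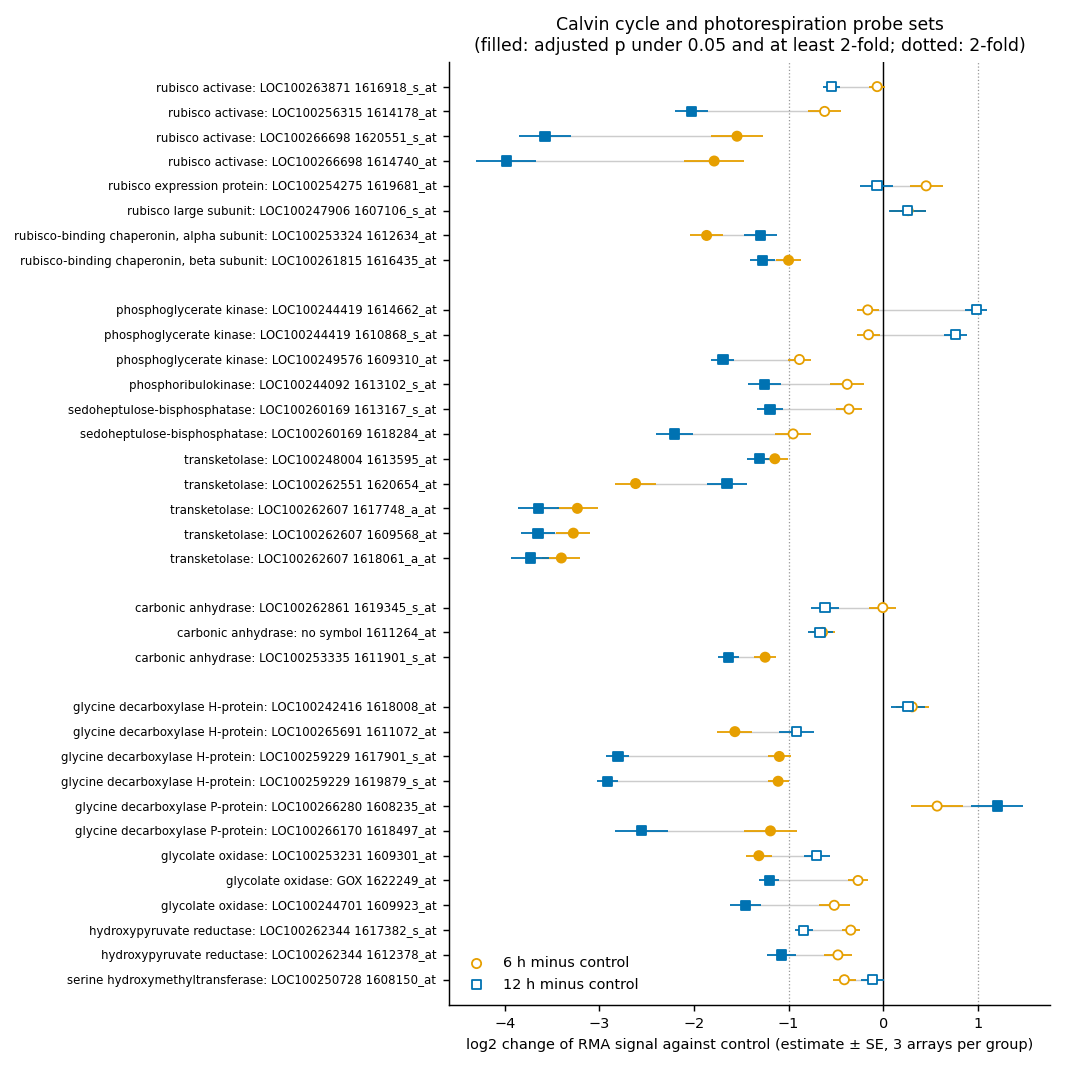
Log2 change of RMA signal against the control (x axis, estimate ± SE, 3 arrays per group) for the 34 members (rows, grouped by role), with circles for 6 h and squares for 12 h. Filled symbols passed the test with at least 2-fold change, 15 at 6 h and 22 at 12 h, and all but 1 of the filled symbols lie left of 0.

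The background depended on which probe sets were counted. Annotation was at hand for 10471 of the probe sets tested, which were brighter (median log2 signal 8.42 over all arrays) than those without it (3.58), and all members came from them. How the probe sets of the annotation tables were selected is not given in the sources used here, and the 5965 without annotation were not searched, so the 34 members may be an incomplete set. Of the annotated probe sets, 21.1% fell and 17.8% rose at 6 h, 25.1% fell and 21.6% rose by 12 h, and 6.95% were lower and 3.45% higher in the direct comparison of the times. The members' log2 signals in the control ranged from 6.37 to 14.34 with a median of 10.87, beside a median of 6.85 over all probe sets. Of the 1265 annotated probe sets whose mean over the 9 arrays reached that of the median member, 10.7% fell at 6 h and 20.6% at 12 h, while 21.7% and 24.9% rose, and 10.4% were lower and 1.26% higher at 12 h than at 6 h. That mean includes the treated arrays, so the choice itself favoured probe sets that rose over those that fell. Members dimmer than the median member do not reach it, so these shares are not a matched background for all 34. All 3 arrays lay below all 3 control arrays for 26 members at 6 h and 28 by 12 h, beside 33.3% and 30.9% of all probe sets.

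**Figure D2:**
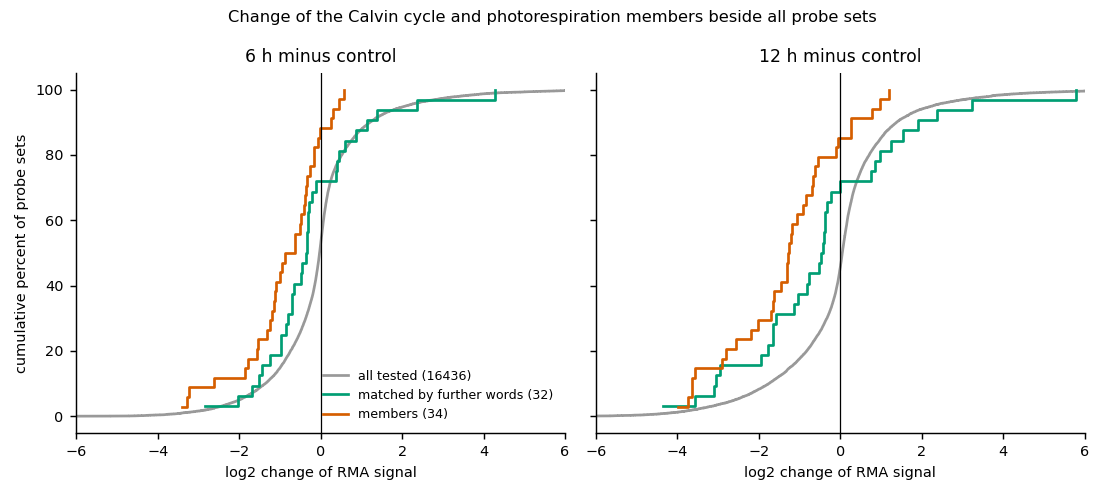
Cumulative percent of probe sets (y axis) by log2 change of RMA signal (x axis) at 6 h (left) and 12 h (right), for the 34 members, the 32 probe sets matched by further pathway words, 6 of which are enzymes of other pathways, and all 16436 tested. The members' curve runs left of the curve of all probe sets over nearly its whole length, with medians of -0.76 and -1.27, and the axis leaves out 56 probe sets at 6 h and 91 at 12 h that lie beyond it.

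The 8 probe sets of rubisco and its helpers gave 4 falls at 6 h and 5 at 12 h, with median log2 changes of -0.81 and -1.29. The 3 activase genes differed widely in size of change. LOC100266698 (probe set 1614740_at) had signals of 7356, 5196 and 6293 in the control, 1139, 2354 and 2184 at 6 h, and 577, 365 and 288 at 12 h. None of the 3 groups overlapped and each was below the one before. It fell at both times, with log2 changes of -1.79 ± 0.31 (SE) at 6 h (adjusted p = 0.00081) and -3.98 ± 0.31 at 12 h (15.8-fold lower, adjusted p = 2.33e-06), the largest fall among the members at 12 h. Its second probe set, 1620551_s_at, also fell, with log2 changes of -1.55 ± 0.28 and -3.57 ± 0.28. The second activase gene, LOC100256315, had a log2 change of -0.62 ± 0.18 at 6 h, short of 2-fold, and fell by 2.02 ± 0.18 at 12 h (adjusted p = 4.56e-06).

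The third activase gene, LOC100263871 (1616918_s_at), had the highest mean signal of this class. It was measured at 21821, 19949 and 20622 in the control, 19301, 19938 and 20403 at 6 h, and 14668, 14660 and 13425 at 12 h. Its 6 h arrays overlapped the control arrays and the 12 h arrays were all below them. The log2 change was -0.06 ± 0.09 at 6 h (adjusted p = 0.588) and -0.55 ± 0.09 at 12 h (adjusted p = 0.000375), a 1.46-fold difference that missed the fold threshold. The highest signal on any array was 30874, and the files do not say which probes were saturated.

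Rubisco-binding chaperonins assist the folding of the large subunit in the chloroplast. The alpha subunit LOC100253324 (1612634_at) had signals of 1952, 1615 and 1922 in the control, 488, 598 and 428 at 6 h, and 777, 882 and 592 at 12 h. Both treated groups were below the control and overlapped each other. It fell by 1.87 ± 0.17 at 6 h (adjusted p = 1.02e-05), the largest fall of this class at that time, with a log2 change of -1.30 ± 0.17 at 12 h (adjusted p = 0.000102). The beta subunit LOC100261815 also fell at both times, 2.00-fold at 6 h (SE 0.13 on the log2 scale), right at the threshold, and by a log2 change of -1.28 ± 0.13 at 12 h. That 6 h call was lost without control replicate 1 (-0.97), control replicate 3 (-0.96) or 6 h replicate 2 (-0.96), and with arrays centred on their median (-0.87).

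The remaining members of this class passed no test. LOC100247906, whose probe set resembles the rubisco large subunit, changed by 0.26 ± 0.19 at 6 h and 0.26 ± 0.19 at 12 h, with groups that overlapped. The large subunit itself is encoded in the chloroplast genome of land plants, and what this probe set measures beyond the similarity was not examined. LOC100254275, annotated as a rubisco expression protein, changed by 0.45 ± 0.17 at 6 h (adjusted p = 0.0526) and -0.07 ± 0.17 at 12 h.

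Of the 11 probe sets for reduction and regeneration of the acceptor, 5 fell at 6 h and 9 at 12 h, with median log2 changes of -0.95 and -1.65. All 5 falls at 6 h were transketolases, which move carbon units with their ketol group between sugar phosphates. All 5 transketolase probe sets, annotated to 3 genes, fell at both times.

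The largest fall of any member at 6 h was that of transketolase LOC100262607. Its probe set 1618061_a_at had signals of 379, 441 and 454 in the control, 45.9, 44.9 and 31.2 at 6 h, and 24.5, 33.1 and 40.0 at 12 h. Both treated groups were far below the control and overlapped each other. It fell, with log2 changes of -3.40 ± 0.20 at 6 h (10.6-fold lower, adjusted p = 4.97e-07) and -3.73 ± 0.20 at 12 h (13.3-fold lower, adjusted p = 1.67e-07). The other probe sets of the gene, 1609568_at and 1617748_a_at, fell alike, with log2 changes of -3.27 and -3.23 at the earlier time and -3.65 and -3.64 at the later. Both list the same source sequence as each other, so they are not independent measures. Transketolase LOC100248004 fell less, with log2 changes of -1.15 ± 0.13 and -1.31 ± 0.13.

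Transketolase LOC100262551 followed another course. Its signals were 1402, 1398 and 2122 in the control, 338, 264 and 202 at 6 h, and 566, 467 and 509 at 12 h. Its 12 h arrays lay between the other groups, above every 6 h array and below every control array. It fell, with log2 changes of -2.62 ± 0.21 at 6 h (adjusted p = 4.07e-06) and -1.65 ± 0.21 at 12 h (adjusted p = 8.18e-05). The change from 6 h to 12 h was 0.97 ± 0.21 (1.96-fold, adjusted p = 0.0082), just short of the fold threshold, and it passed without 6 h replicate 1 (1.15) or 12 h replicate 2 (1.03). Its probe set, 1620654_at, lists the same source sequence as 1618061_a_at of LOC100262607, so the assignment to separate genes rests on the annotation.

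Sedoheptulose-bisphosphatase removes a phosphate from a sugar intermediate at a step that commits carbon to regeneration. Its gene LOC100260169 was measured by a pair of probe sets. The first, 1613167_s_at, had signals of 13304, 12321 and 13223 in the control, 9971, 9815 and 10428 at 6 h, and 6205, 6547 and 4432 at 12 h. None of the 3 groups overlapped. The log2 change was -0.36 ± 0.14 at 6 h (adjusted p = 0.0559), and the signal fell by 1.20 ± 0.14 at 12 h (adjusted p = 4.38e-05). The other probe set, 1618284_at, changed by -0.95 ± 0.19 at 6 h and fell by 2.20 ± 0.19 at 12 h, so the size of the fall differed between probe sets of 1 gene. Phosphoribulokinase LOC100244092, which makes the CO2 acceptor, changed by -0.38 ± 0.18 at 6 h (adjusted p = 0.102) and fell by 1.26 ± 0.18 at 12 h (adjusted p = 0.000154).

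The 2 phosphoglycerate kinase genes ended on opposite sides of the control. LOC100249576 (1609310_at) had signals of 8364, 7196 and 7967 in the control, 4168, 4306 and 4236 at 6 h, and 2569, 2704 and 2038 at 12 h. Each group was below the one before with no overlap. The log2 change was -0.89 ± 0.12 at 6 h, short of 2-fold, and the signal fell by 1.69 ± 0.12 at 12 h (adjusted p = 1.14e-06). LOC100244419 (1614662_at) had signals of 1150, 1319 and 1517 in the control, 1261, 1185 and 1096 at 6 h, and 2511, 2625 and 2708 at 12 h. Its control and 6 h arrays overlapped, and every 12 h array was above them.

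LOC100244419 was the 1 member higher at 12 h than at 6 h, by 1.15 ± 0.12 on the log2 scale (2.22-fold, adjusted p = 0.000166). Against the control it changed by -0.16 ± 0.12 at 6 h and 0.99 ± 0.12 at 12 h (1.98-fold, adjusted p = 4.37e-05), so that it missed the fold threshold there. It passed with arrays centred on their median (1.13), without control replicate 3 (1.09) and without 12 h replicate 1 (1.01). Its second probe set, 1610868_s_at, changed by -0.16 ± 0.12 and 0.77 ± 0.12. These kinase genes are neighbours in the RefSeq gene table of assembly ASM3070453v1, with 0 genes between them.

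Carbonic anhydrase converts CO2 and bicarbonate into each other. Of its 3 probe sets 1 fell at each time, with median log2 changes of -0.64 and -0.67. LOC100253335 (1611901_s_at) had signals of 5090, 4837 and 4010 in the control, 1991, 1938 and 1910 at 6 h, and 1369, 1604 and 1490 at 12 h. No overlap was seen between the groups. It fell, with log2 changes of -1.25 ± 0.11 at 6 h (adjusted p = 8.5e-06) and -1.64 ± 0.11 at 12 h (adjusted p = 8.85e-07). LOC100262861 (1619345_s_at), with the higher mean over the 9 arrays, was measured at 6112, 4456 and 4139 in the control, 4964, 4653 and 4837 at 6 h, and 2922, 3138 and 3417 at 12 h. Its 6 h arrays lay within the range of the control and its 12 h arrays below it. The log2 change was 0.00 in size at 6 h (SE 0.14, adjusted p = 0.985) and -0.62 ± 0.14 at 12 h (adjusted p = 0.00422). The probe set with no symbol, 1611264_at, changed by -0.64 ± 0.13 and -0.67 ± 0.13.

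Of the 12 photorespiratory probe sets, 5 fell at 6 h, and by 12 h 6 were called lower and 1 higher, with median log2 changes of -0.50 and -0.995. The 3 glycolate oxidases, which oxidise glycolate to glyoxylate and release hydrogen peroxide, followed different courses. GOX (1622249_at) had signals of 17383, 16262 and 15429 in the control, 12734, 13306 and 14801 at 6 h, and 7154, 7729 and 6463 at 12 h. None of the 3 groups overlapped, although the 6 h and control arrays came close. The log2 change was -0.27 ± 0.11 at 6 h (adjusted p = 0.0602), and the signal fell by 1.20 ± 0.11 at 12 h (adjusted p = 5.22e-06). LOC100244701 changed by -0.52 ± 0.16 at 6 h and fell by 1.45 ± 0.16 at 12 h. LOC100253231 fell by 1.31 ± 0.14 at 6 h (adjusted p = 2.34e-05), and its log2 change at 12 h was -0.70 ± 0.14 (adjusted p = 0.00138).

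Glycine decarboxylase is a complex in which the P-protein releases CO2 from glycine and the H-protein carries the remaining group on its lipoyl arm. Its P-protein genes were called in opposite directions at 12 h. Both were dim, with control log2 means of 7.31 for LOC100266170 and 6.88 for LOC100266280 beside a member median of 10.87. LOC100266170 (1618497_at) had signals of 181, 135 and 163 in the control, 46.4, 68.3 and 106 at 6 h, and 34.0, 27.4 and 21.0 at 12 h. No overlap was seen between the groups. It fell, with log2 changes of -1.19 ± 0.28 at 6 h (adjusted p = 0.00497) and -2.56 ± 0.28 at 12 h (5.89-fold lower, adjusted p = 2.58e-05), and the 6 h call was lost without 6 h replicate 1 (-0.90).

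The other P-protein gene, LOC100266280 (1608235_at), was the 1 member that rose. Its signals were 93.4, 95.3 and 182 in the control, 188, 150 and 188 at 6 h, and 252, 364 and 217 at 12 h. Its 6 h arrays overlapped the control, of which replicate 3 was much the highest, and all 12 h arrays were above both groups. The log2 change was 0.57 ± 0.27 at 6 h (adjusted p = 0.111), and the signal rose by 1.20 ± 0.27 at 12 h (2.31-fold, adjusted p = 0.00346). Without 12 h replicate 2 the change was 0.99 and the call was lost.

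The H-protein genes also differed. LOC100259229 (1619879_s_at) had signals of 12623, 10808 and 11682 in the control, 5328, 5042 and 5892 at 6 h, and 1512, 1712 and 1435 at 12 h. Each group was well below the one before. It fell, with log2 changes of -1.11 ± 0.11 at 6 h (adjusted p = 1.63e-05) and -2.91 ± 0.11 at 12 h (7.54-fold lower, adjusted p = 1.87e-08). Its second probe set, 1617901_s_at, gave -1.10 ± 0.12 and -2.80 ± 0.12. With arrays centred on their median the 6 h changes were -0.98 and -0.96, under the fold threshold.

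H-protein LOC100265691 (1611072_at) had signals of 247, 345 and 400 in the control, 95.8, 119 and 115 at 6 h, and 148, 172 and 199 at 12 h. Its 12 h arrays lay between the other groups with no overlap. It fell by 1.57 ± 0.19 at 6 h (adjusted p = 5.64e-05), the largest fall of the photorespiratory members at that time. At 12 h the log2 change was -0.92 ± 0.19 (adjusted p = 0.00173), which passed the fold threshold without control replicate 1 (-1.12), without 12 h replicate 3 (-1.02) and with arrays centred on the hybridization controls (-1.06). The third H-protein gene, LOC100242416, changed by 0.31 ± 0.18 and 0.26 ± 0.18 and passed no test.

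Hydroxypyruvate reductase LOC100262344 changed little at 6 h, by -0.48 ± 0.15 at probe set 1612378_at and -0.34 ± 0.10 at 1617382_s_at. At 12 h the first fell by 1.07 ± 0.15 (adjusted p = 0.000149) and the second changed by -0.84 ± 0.10. The call was lost without control replicate 3 (-0.98), without 12 h replicate 3 (-0.96) and with arrays centred on their median (-0.93). The only serine hydroxymethyltransferase among the members, LOC100250728, is annotated as similar to the plastid form rather than the mitochondrial one of photorespiration, and changed by -0.41 ± 0.12 at 6 h (adjusted p = 0.0146) and -0.11 ± 0.12 at 12 h.

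**Figure D3:**
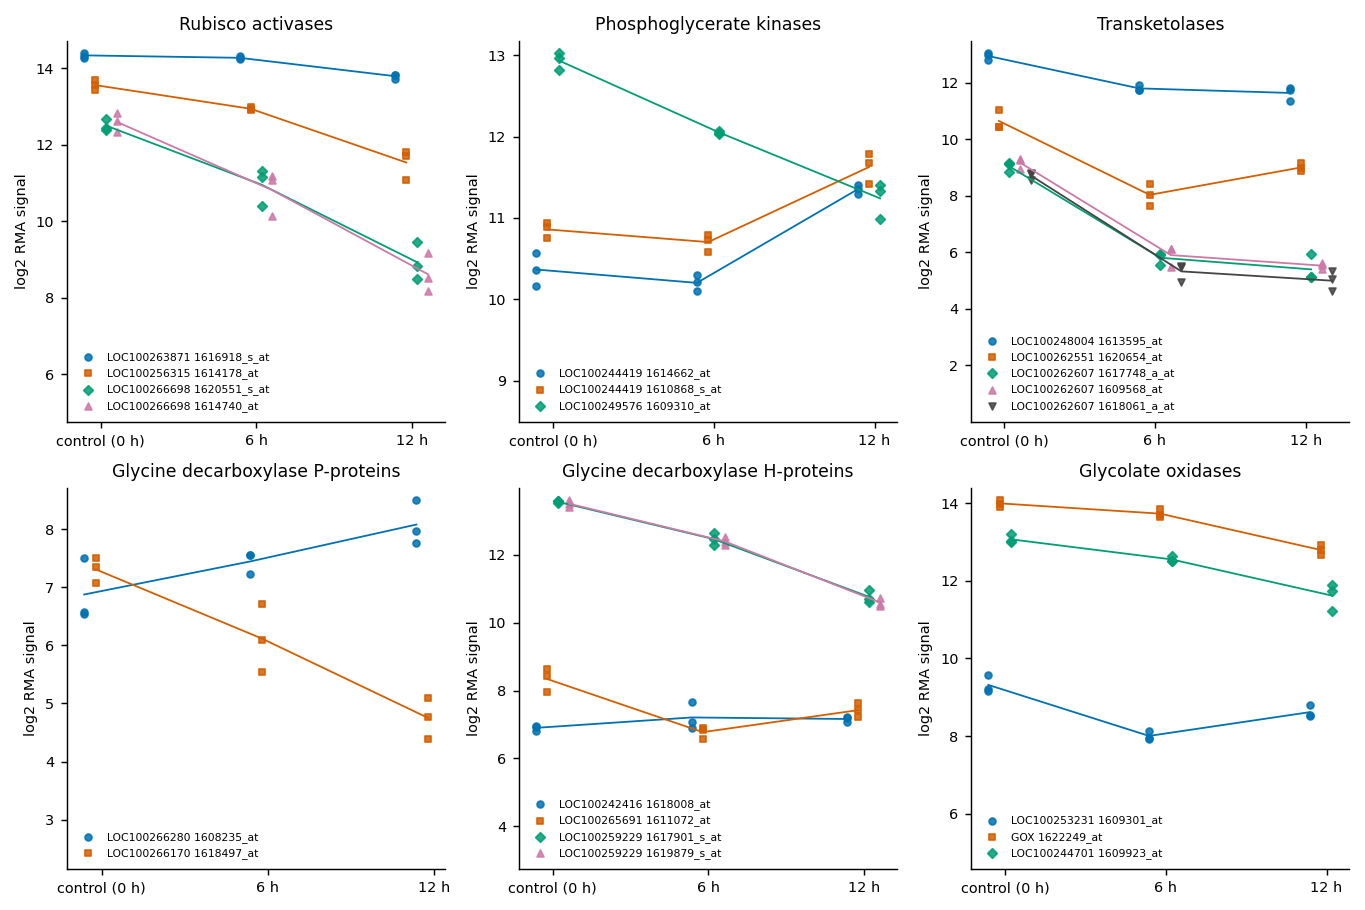
Log2 RMA signal (y axis) of every array in the control, 6 h and 12 h groups (x axis) for the members of 6 enzymes, with 1 symbol and colour per probe set and lines that join the means of 3 arrays. Activase LOC100266698 and H-protein LOC100259229 step down at each time, transketolase LOC100262551 is lowest at 6 h, and P-protein LOC100266280 and phosphoglycerate kinase LOC100244419 end above the control.

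Among the 13 members that fell at both times, 5 were lower at 12 h than at 6 h by the direct test, and the same held for 2 of the 8 that fell at 12 h only. The lower members were activases LOC100266698 (both probe sets, log2 differences of -2.20 ± 0.31 and -2.03 ± 0.28) and LOC100256315 (-1.40 ± 0.18), H-protein LOC100259229 (-1.80 ± 0.11 and -1.71 ± 0.12), P-protein LOC100266170 (-1.37 ± 0.28) and sedoheptulose-bisphosphatase LOC100260169 (1618284_at, -1.25 ± 0.19). The 12 h arrays were all below the 6 h arrays for 19 members, beside 20.1% of all probe sets. Estimates above 0 were seen for 8 members, and of these only LOC100244419 at 1614662_at passed the test. Those of transketolase LOC100262551, glycolate oxidase LOC100253231 (0.61 ± 0.14), H-protein LOC100265691 (0.65 ± 0.19) and the alpha chaperonin (0.57 ± 0.17) had adjusted p values of 0.0082, 0.00889, 0.0269 and 0.0352 but were under 2-fold, as was the second probe set of LOC100244419 (0.92 ± 0.12).

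**Figure D4:**
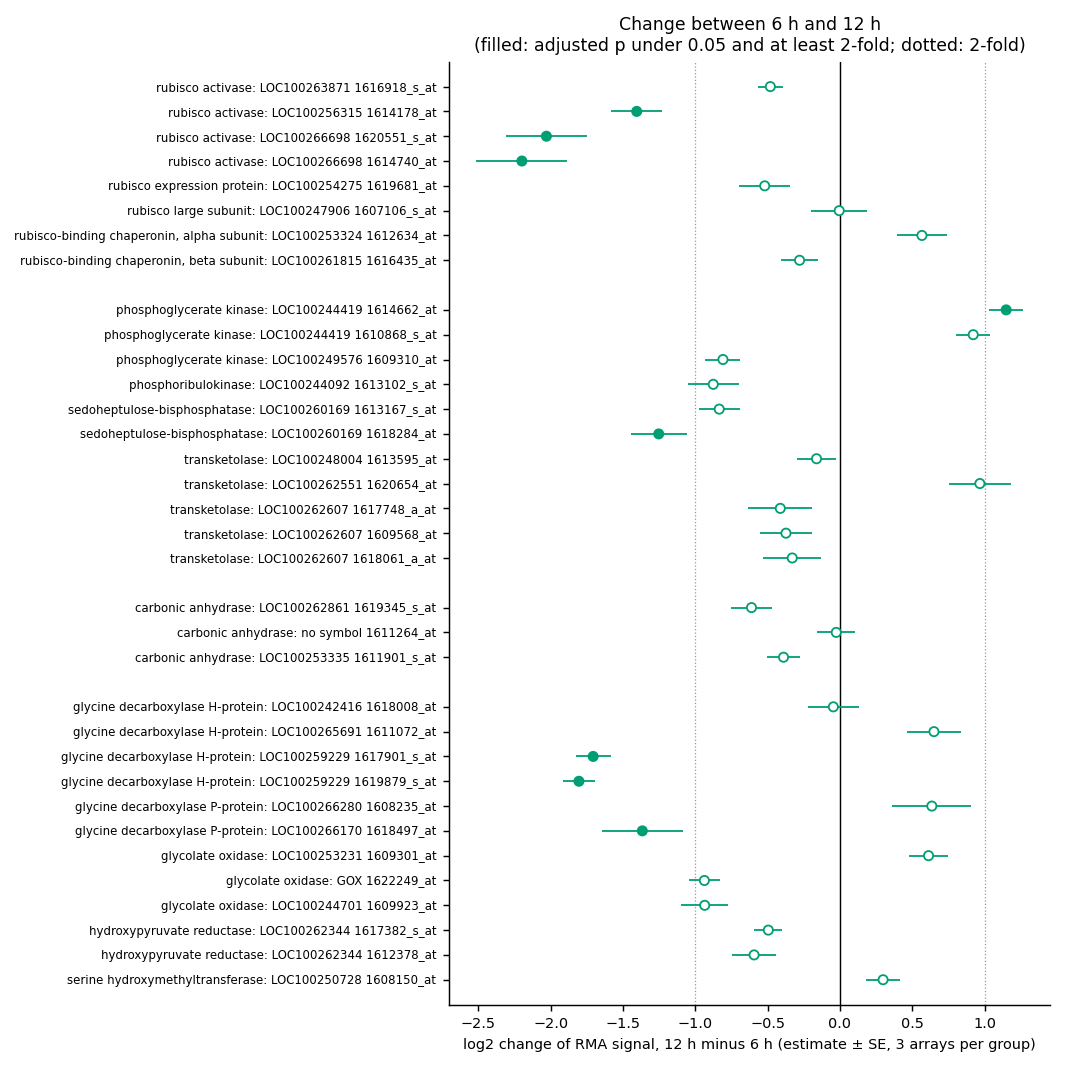
Log2 change of RMA signal from 6 h to 12 h (x axis, estimate ± SE, 3 arrays per group) for the 34 members (rows). The 8 filled symbols passed the test with at least 2-fold change, 7 of them left of 0 and 1 right of it.

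Other enzymes of the same pathways were sought by further words in the annotation, which matched 32 probe sets. The calls were 4 higher and 6 lower at 6 h against 6 higher and 12 lower by 12 h, with median log2 changes of -0.35 and -0.45. From 6 h to 12 h, 2 were called higher and 7 lower. At 6 h these shares were 12.5% higher and 18.8% lower, beside 17.8% and 21.1% of annotated probe sets and 11.9% and 14.7% of all. By 12 h they were 18.8% higher and 37.5% lower, beside 21.6% and 25.1% of annotated probe sets and 14.7% and 17.5% of all. In the direct comparison of the times they were 6.25% and 21.9%, beside 3.45% and 6.95% of annotated probe sets and 2.34% and 4.54% of all. The words also matched 6 enzymes of other pathways, a glutaminyl-tRNA synthetase and 5 acyltransferases of the pyruvate and 2-oxoglutarate dehydrogenase complexes. Left out after their values were seen, they leave 26 probe sets, of which 3 were higher with 5 lower at 6 h, 4 higher with 12 lower by 12 h, and 2 higher with 7 lower between the times. Many of these names also cover enzymes outside the chloroplast and the peroxisome, and both directions were seen within glyceraldehyde-3-phosphate dehydrogenase, which serves glycolysis as well as the Calvin cycle. Dehydrogenase LOC100260378 (1607548_at), annotated as similar to a putative NADP-dependent form, fell, with log2 changes of -1.68 ± 0.12 and -3.06 ± 0.12. LOC100264789, annotated as similar to the C subunit (GapC), rose, with 4.28 ± 0.20 and 5.78 ± 0.20. Neither annotation names the chloroplast or the Calvin cycle, so the pair does not show opposite directions within a Calvin cycle enzyme.

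Of the 4 catalase probe sets, for an enzyme that removes the hydrogen peroxide of the peroxisome, 2 fell at 6 h and 3 at 12 h. LOC100253859 (1609268_at) fell, with log2 changes of -2.83 ± 0.15 and -4.35 ± 0.15. Aldolase LOC100265177 fell as well, with -1.43 ± 0.18 and -3.11 ± 0.18. CP12, a small protein that binds phosphoribulokinase and glyceraldehyde-3-phosphate dehydrogenase in the dark, was measured by LOC100267103, which changed by -0.98 ± 0.13 at 6 h and fell by 1.65 ± 0.13 at 12 h. The glyoxylate aminotransferase LOC100261927, which makes glycine, changed by -0.86 ± 0.15 at 6 h and fell by 1.78 ± 0.15 at 12 h. Among the 5 probe sets of glutamine synthetases, which reassimilate ammonia, 1 rose at 6 h, while by 12 h 2 were called higher and 1 lower. The lower one, LOC100261413 (1613697_at), is annotated as similar to the chloroplast form and fell by 1.57 ± 0.11 at 12 h. The higher ones, 1606798_at and 1620767_at, belong to the gene GS, and the first is annotated as cytosolic.

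A further 14 probe sets carry enzymes of these pathways under other wording and were chosen after their values were seen, so their counts support nothing. Of them 5 were called lower at 6 h and 9 by 12 h, with 0 called higher at either time. They include fructose-bisphosphatase, which has no member. Also among them is a carbonic anhydrase under the name carbonate dehydratase, LOC100259742, with signals of 8055, 8787 and 7625 in the control, 795, 531 and 763 at 6 h, and 169, 176 and 176 at 12 h. Its log2 changes were -3.57 ± 0.15 and -5.55 ± 0.15. Of the 4 further hydroxymethyltransferases, 1 was called lower by 12 h. This was LOC100261289, annotated as similar to a glycine hydroxymethyltransferase, which changed by -0.35 ± 0.14 at 6 h (adjusted p = 0.0664) and fell by 1.11 ± 0.14 at 12 h (2.16-fold lower, adjusted p = 7.63e-05). The rubisco small subunit LOC100267942 fell by 1.33 ± 0.11 at 12 h at 1610124_at and changed by -0.24 ± 0.08 at 1616847_s_at.

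Some measures of the arrays moved with the groups. The ratio of 3' to 5' signal of the GAPDH control probe sets, a measure of transcript integrity and labelling, was 4.15 to 4.67 in the control, 3.92 to 4.51 at 6 h and 2.40 to 2.77 at 12 h, whereas that of actin was 20.6 to 28.2, 22.5 to 26.2 and 21.3 to 24.2. The part of these differences in the members' changes was not tested. In each group 1 array was the lowest for many members. In the control this was replicate 2, lowest for 19 of 34 members beside 29.5% of all probe sets, and without it 16 members fell at 6 h and 21 at 12 h. At 6 h it was replicate 1, lowest for 17 members beside 31.8%, and without it 14 fell at 6 h. At 12 h it was replicate 3, lowest for 23 members beside 39.9%, and without it 21 fell at 12 h. Correlations between arrays of a group were at least 0.988. Leaf mesophyll markers, 34 probe sets of photosystem and chlorophyll-binding proteins, showed 0 rises and 14 falls at 6 h, then 1 rise and 25 falls by 12 h. Of all probe sets 14.7% fell at 6 h and 17.5% at 12 h. The median log2 change of these markers was -2.21 at 12 h. Those annotated as the photosystem II proteins D2, CP43, H and K were called at neither time, with log2 changes of -0.60 to 0.31 at 12 h. Of the 3 phloem markers 1 fell at each time, the 1 epidermal marker fell at both, and the words for xylem and guard cells matched no probe set. That epidermal probe set, 1619011_at, was matched as a 3-ketoacyl-CoA synthase, whereas the paper lists it as a chalcone synthase, so its use as a marker is uncertain. The part of these markers in the members' changes was not tested.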

How the data were processed

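RNA from 9 leaf samples was hybridised to the Affymetrix grape array, and the authors deposited 1 table of RMA signal intensity (background correction, quantile normalization and summary per probe set) on the linear scale. Scanner files were not used here, so detection and saturation are unknown and the number of arrays limits the precision. The deposited gene tables also hold the authors' own comparisons, of which only the annotation was used. Values were taken to log2 with no pseudocount, 165 control probe sets were left out, and the 16436 others were fitted in 1 model of 3 groups with limma 3.58.1 (lmFit, eBayes) in R 4.3.3. P-values were adjusted over all 16436 (Benjamini-Hochberg), and a call needed an adjusted p under 0.05 and at least 2-fold change. Each replicate pooled 6 leaves, and no source used here says whether replicates came from separate vines, so p-values measure the spread between these samples. Replicate numbers did not pair the arrays. On simulated data the fit recovered 44 of 50 set to 2.5-fold and 50 of 50 set to 4-fold for 12 h against the control.

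The members and lists were chosen with earlier results of these data known. Values of every array are given for the member with the highest mean, the largest called changes at each time in each role, members called in opposite directions within an enzyme, and the largest called changes between the times. Phosphoglycerate kinase LOC100249576, transketolase LOC100262551 and carbonate dehydratase LOC100259742 were added to these after their values were seen, as was hydroxymethyltransferase LOC100261289, and so was the set of equally bright annotated probe sets. Up to 2 rises and 2 falls per enzyme could be named among the other pathway genes. Alternatives were the fold threshold, unadjusted p, the groups in the fit, trend and robust estimation, a filter on dim probe sets, 3 other scalings, shared probe sets, averaging per gene, a replicate block, leaving out each array and, chosen after seeing the data, leaving out 6 enzymes of other pathways from the further words. No sequences are shown.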

Additional observations from a re-analysis of the deposited data

Results flagged for a closer look

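For 8 members the change against the control differed between 6 h and 12 h by the direct limma test of 12 h against 6 h. On the log2 scale (12 h minus 6 h) the differences were -2.20 (adjusted p = 0.000925) and -2.03 for the probe sets 1614740_at and 1620551_s_at of activase LOC100266698, -1.40 for activase LOC100256315, -1.80 and -1.71 for the probe sets 1619879_s_at and 1617901_s_at of H-protein LOC100259229, -1.37 for P-protein LOC100266170, -1.25 for sedoheptulose-bisphosphatase LOC100260169 at 1618284_at, and 1.15 for phosphoglycerate kinase LOC100244419 at 1614662_at. In each of these the 3 arrays at 12 h lay on 1 side of the 3 arrays at 6 h. Groups of 3 arrays are too small for a test of single outlying arrays.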

How the results depend on the processing

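No called member changed direction under any alternative run. Without the fold threshold, 23 members fell at 6 h, 3 rose at 12 h, and 6 rose and 17 fell from 6 h to 12 h, and the other pathway genes had 9 rises with 17 falls at 6 h, then 9 rises with 12 falls from 6 h to 12 h. Without probe sets that can bind several transcripts, 9, 13 and 4 of the 21 members left fell at 6 h, at 12 h and from 6 h to 12 h. Averaged per gene, 9 and 15 of 27 fell at 6 h and 12 h and 4 from 6 h to 12 h, and 1 other pathway gene rose from 6 h to 12 h. No setting in this section has a share of all probe sets or genes called beside its counts. Centring arrays on their median moved all changes by 0.13 at 6 h and 0.14 at 12 h, with 12 members falling at 6 h and 20 at 12 h, where 2 rose. Centring on 18 hybridization controls moved them by -0.16 and -0.14, with 17 and 22 falling. Calls over all probe sets moved as well. At 6 h 44.8% of them were rises as deposited, 52% with median centring and 36.6% with centring on the hybridization controls. At 12 h these were 45.5%, 51.7% and 39.2%. Leaving out 1 array at a time gave 14 to 16 falls at 6 h with 0 rises, 20 to 22 falls and 0 to 2 rises at 12 h, and 7 to 9 falls and 1 to 2 rises from 6 h to 12 h, and for the other pathway genes 4 rises and 6 to 8 falls, 6 to 7 rises and 12 falls, and 1 to 3 rises and 7 to 8 falls. The cause was not tested. Leaving out the 6 enzymes of other pathways, chosen after seeing the data, kept every count of the other pathway genes within 1.5 times. The replicate block gave the main counts of 15, 21 and 7 falling members. Same-numbered arrays did not deviate together, with correlations of -0.16 to 0.14, 1 of 9 over 0.1, and 2 of 9 arrays closest to their own number. With 3 arrays a group, calls whose change lies near 2-fold can turn on a single array.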
